A study of Mus musculus with 12 samples.

Results

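The response of type II alveolar epithelial (AT2) cells to cockroach extract (CRE) was measured as the difference between 6 CRE and 6 PBS libraries, each CRE library being compared with the PBS library of the same genotype and replicate number. All 12 of the 12 RNA-seq libraries of the series entered, which makes 6 pairs, 3 from *AhRfl/fl* mice and 3 from *Sftpc-Cre;AhRfl/fl* mice, and every gene was considered. Mice of both genotypes carried the floxed *Ahr* gene, were on a C57BL/6 background and were of the same range of age. Only *Sftpc-Cre;AhRfl/fl* mice also carried Cre from the *Sftpc* gene, which is active in AT2 cells, so that the control group has floxed alleles but no Cre. The cells were taken from digested lungs after removal of cells with CD16/32, CD45, Ter119 or Sca-1 on their surface, grown on collagen I, and exposed for 24 h to CRE at 50 µg/ml or to PBS. The sources used here do not say whether a library came from 1 mouse or from several, so p-values measure the spread between these pairs.

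Cockroach extract holds proteases, chitin and microbial products, and lung epithelium senses such material through pattern receptors and protease-activated receptors. These receptors act through NF-kB, a family of transcription factors that induces chemokines, cytokines, antimicrobial proteins and its own inhibitors. Other routes are NRF2, the transcription factor of the antioxidant genes, and AhR, a ligand-activated factor best known for inducing *Cyp1a1* and *Cyp1b1*. AT2 cells make surfactant and can turn into the thin alveolar type I (AT1) cells of the gas exchange surface.

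The libraries held 68878065 to 80935797 counts each, and 20612 of 55450 genes had enough counts to be tested. Levels are given as CPM, the count scaled to a library of fixed size, after TMM normalization, as lowest, median and highest of 6 libraries, and 3 counts in a library, the limit that a count of 0 allows from counting error alone, correspond to 0.0365 to 0.0446 CPM. Per gene length (FPKM), the AT2 marker *Sftpc* lay between 2770 and 5460 in the 12 libraries and *Sftpb* between 204 and 394. The club cell marker *Scgb1a1* reached 7340 to 15700 FPKM, above *Sftpc* in every library. The AT1 marker *Ager* stood at 101 to 330 FPKM and the ciliated cell marker *Foxj1* at 14.4 to 39.9. Transcripts of airway cells and AT1 cells were thus present beside those of AT2 cells. *Ptprc*, which encodes the leukocyte antigen CD45, ranged from 0.102 to 3.37 FPKM, and it was highest in pair 1 of both genotypes. The 4 libraries of these pairs also stood apart from the other 8 on the first principal component (35.3% of the variance, -50.9 to -39.3 against 1.21 to 55.4), which did not separate CRE from PBS. In bulk RNA, fewer cells of a type and less RNA per cell cannot be told apart.

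CRE changed the level of 1161 of the 20612 genes (5.63%) at a Benjamini-Hochberg adjusted p below 0.05 (edgeR, quasi-likelihood test, pairs as a block). Of these, 622 (3.02%) were higher and 539 (2.61%) lower with CRE, 615 and 528 of them in the same direction in all 6 pairs, as were 14.4% of all genes tested. The changes were mostly small. The median fold was 1.32 for genes that rose and 1.28 for genes that fell, and 69.0% and 80.9% of them changed less than 1.5-fold. Large changes were mainly increases, since 85 genes rose and 28 fell by more than 2-fold, and 26 rose and 4 fell by more than 4-fold. Those that rose more than 2-fold were low at the start, with a median of 3.08 CPM with PBS against 44.1 CPM for all genes that rose. All 6 CRE libraries stood above all 6 PBS libraries in 1.09% of the genes tested and below them in 0.412% (310 genes or 1.5% together), and 184 of the genes called higher and 60 of those called lower were among these. Without the block of pairs 226 genes were called, 178 higher and 48 lower. The number called was 746 without pair 1 and 685 without pair 3 of *AhRfl/fl* cells, 677 without pair 3 of *Sftpc-Cre;AhRfl/fl* cells, and 801 to 835 without any of the other 3 pairs.

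**Figure D1:**
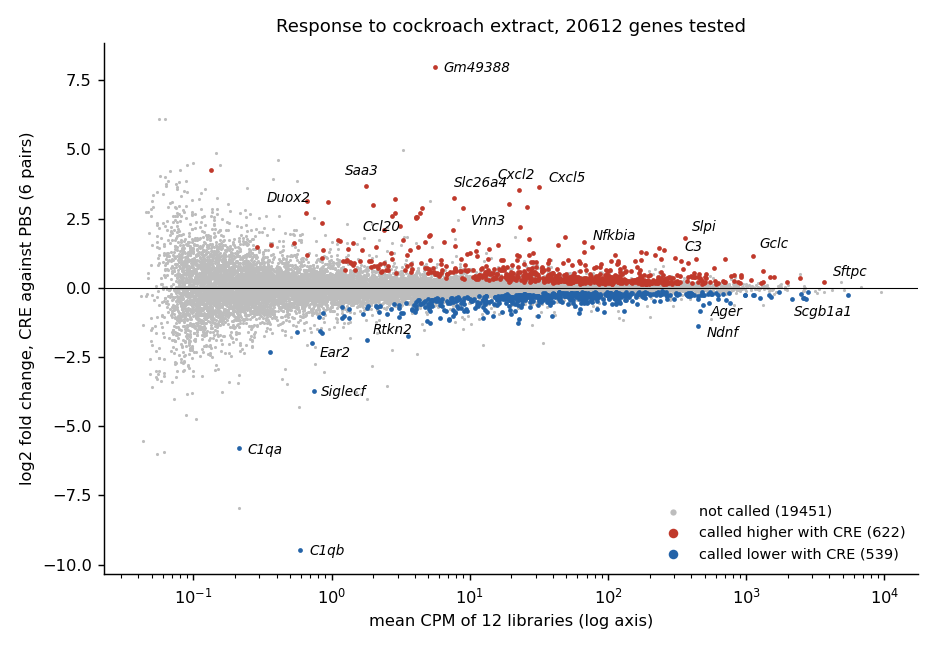
Each point is 1 of 20612 genes, placed by its mean CPM over 12 libraries (log axis) and its log2 fold change with CRE over 6 pairs. Red points were called higher (622), blue points lower (539). Chemokine genes such as *Cxcl2* and *Cxcl5* stand at log2 fold changes of 3.54 and 3.64, while most called genes lie close to 0 at higher levels. The highest red point is *Gm49388*, at 7.98, with 0 to 17 counts in PBS and 0 to 3211 counts in CRE libraries, which overlaps other genes, so that its counts are uncertain.

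Chemokines that draw neutrophils were among the genes with the largest increases. *Cxcl5* (ENSMUSG00000029371, chromosome 5, 90759360 to 90761624 of GRCm38) stood at 2.47, 4.51 and 8.46 CPM with PBS and at 38.6, 55.8 and 79.2 CPM with CRE, a log2 fold change of 3.64 (SE 0.24, n = 6 pairs, adjusted p = 0.00015). *Cxcl2* (ENSMUSG00000058427, chromosome 5, 90903871 to 90905938) went from 2.27, 3.29 and 6.74 CPM to 30.7, 39.5 and 54.0 CPM, or 11.6-fold (log2 fold change 3.54, SE 0.14, adjusted p = 3.05e-05). In neither gene did a CRE library overlap a PBS library, and each of the 6 pairs showed the increase. *Cxcl1* rose 8.19-fold (log2 fold change 3.03, SE 0.22, adjusted p = 0.000208) and *Cxcl3* 7.60-fold (2.93, SE 0.13, adjusted p = 3.78e-05), again with no overlap. These 4 genes encode ligands of the receptor CXCR2 and lie in 1 cluster on chromosome 5.

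*Ccl20*, which encodes the ligand of CCR6 on dendritic cells and Th17 cells, went from 0.754, 1.04 and 2.16 CPM with PBS to 4.14, 7.51 and 10.4 CPM with CRE (log2 fold change 2.71, SE 0.17, adjusted p = 0.000113). All CRE libraries were above all PBS libraries. The monocyte chemokines *Ccl2* and *Ccl7* rose 2.93-fold and 3.64-fold, *Ccl22*, a ligand of CCR4, 3.37-fold and the CXCR3 ligand *Cxcl10* 1.61-fold, all in 6 of 6 pairs, although their groups overlapped. *Ccl22* was spread over 0.541 to 34.6 CPM with PBS, and *Ccl2* over 2.90 to 21.5 CPM. Of 20 chemokines tested, 10 rose and 0 fell, and their median log2 fold change was 0.57, against -0.00119 for all genes tested. *Cxcl15*, a chemokine made in lung epithelium, had 263 CPM with PBS and 268 CPM with CRE (log2 fold change 0.03, adjusted p = 0.775).

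The start regions of such genes often hold sites for NF-kB. RefSeq promoter windows of GRCm38.p6, running from 250 bases before to 50 bases after the start of transcription, were matched by symbol to 880 of the 1161 called genes and searched on both strands for the NF-kB consensus. It was present in 4.51% of all 32851 windows and in 5.33% of those of genes tested. Among windows of genes called higher the share was 8.42%, and it was 17.5% (11 of 63) for those that rose more than 2-fold and 4.73% for those called lower. Of 15 windows of chemokine genes, 6 held it. The windows of 6 genes are printed because they belong to genes that rose with CRE in every pair and show where the consensus lies, which is in capitals (overlapping matches are merged). The first capital lies 71, 97 and 73 bases before the start in *Cxcl1*, *Cxcl2* and *Cxcl3*, and in these 3 windows the capitals spell the same 11 bases. In *Ccl20*, *Nfkbia* and *Tnip3* it lies 80, 29 and 54 bases before the start. A match is a description of the sequence and not evidence that NF-kB was bound.
Cxcl1 (chr5:90890995-90891294, + strand): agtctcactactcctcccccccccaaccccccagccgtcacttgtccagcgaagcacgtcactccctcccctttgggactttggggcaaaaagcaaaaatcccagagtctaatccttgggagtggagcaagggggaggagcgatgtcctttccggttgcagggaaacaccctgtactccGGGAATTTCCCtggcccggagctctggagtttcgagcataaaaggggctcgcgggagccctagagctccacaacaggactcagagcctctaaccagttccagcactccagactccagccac
Cxcl2 (chr5:90903649-90903948, + strand): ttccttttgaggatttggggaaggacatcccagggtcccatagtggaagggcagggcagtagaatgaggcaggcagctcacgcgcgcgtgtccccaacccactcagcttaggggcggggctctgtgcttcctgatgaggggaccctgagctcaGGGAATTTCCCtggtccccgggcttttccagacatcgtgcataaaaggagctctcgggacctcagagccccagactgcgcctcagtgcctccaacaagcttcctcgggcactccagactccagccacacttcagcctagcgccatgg
Cxcl3 (chr5:90785851-90786150, + strand): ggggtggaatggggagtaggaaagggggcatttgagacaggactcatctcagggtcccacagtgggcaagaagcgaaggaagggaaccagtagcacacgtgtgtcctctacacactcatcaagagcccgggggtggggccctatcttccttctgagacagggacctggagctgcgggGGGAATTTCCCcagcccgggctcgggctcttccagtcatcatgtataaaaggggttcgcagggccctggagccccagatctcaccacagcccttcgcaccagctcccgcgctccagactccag
Ccl20 (chr1:83116516-83116815, + strand): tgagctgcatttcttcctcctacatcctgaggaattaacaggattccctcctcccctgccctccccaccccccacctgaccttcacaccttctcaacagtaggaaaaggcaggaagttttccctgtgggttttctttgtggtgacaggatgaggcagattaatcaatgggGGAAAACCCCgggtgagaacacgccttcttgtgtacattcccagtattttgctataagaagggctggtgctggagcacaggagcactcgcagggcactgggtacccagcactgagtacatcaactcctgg
Nfkbia (chr12:55492598-55492897, - strand): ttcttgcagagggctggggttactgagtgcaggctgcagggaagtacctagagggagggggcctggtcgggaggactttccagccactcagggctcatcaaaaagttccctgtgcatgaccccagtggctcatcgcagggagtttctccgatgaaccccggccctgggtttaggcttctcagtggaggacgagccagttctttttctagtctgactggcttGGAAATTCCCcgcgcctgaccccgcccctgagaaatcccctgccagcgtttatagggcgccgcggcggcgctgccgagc
Tnip3 (chr6:65590148-65590447, + strand): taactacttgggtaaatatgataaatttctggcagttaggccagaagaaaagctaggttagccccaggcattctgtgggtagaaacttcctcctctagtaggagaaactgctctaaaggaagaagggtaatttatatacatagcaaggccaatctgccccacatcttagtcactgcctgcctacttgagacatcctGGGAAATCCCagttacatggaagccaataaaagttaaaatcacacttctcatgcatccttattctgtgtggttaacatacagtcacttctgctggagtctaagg

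**Figure D2:**
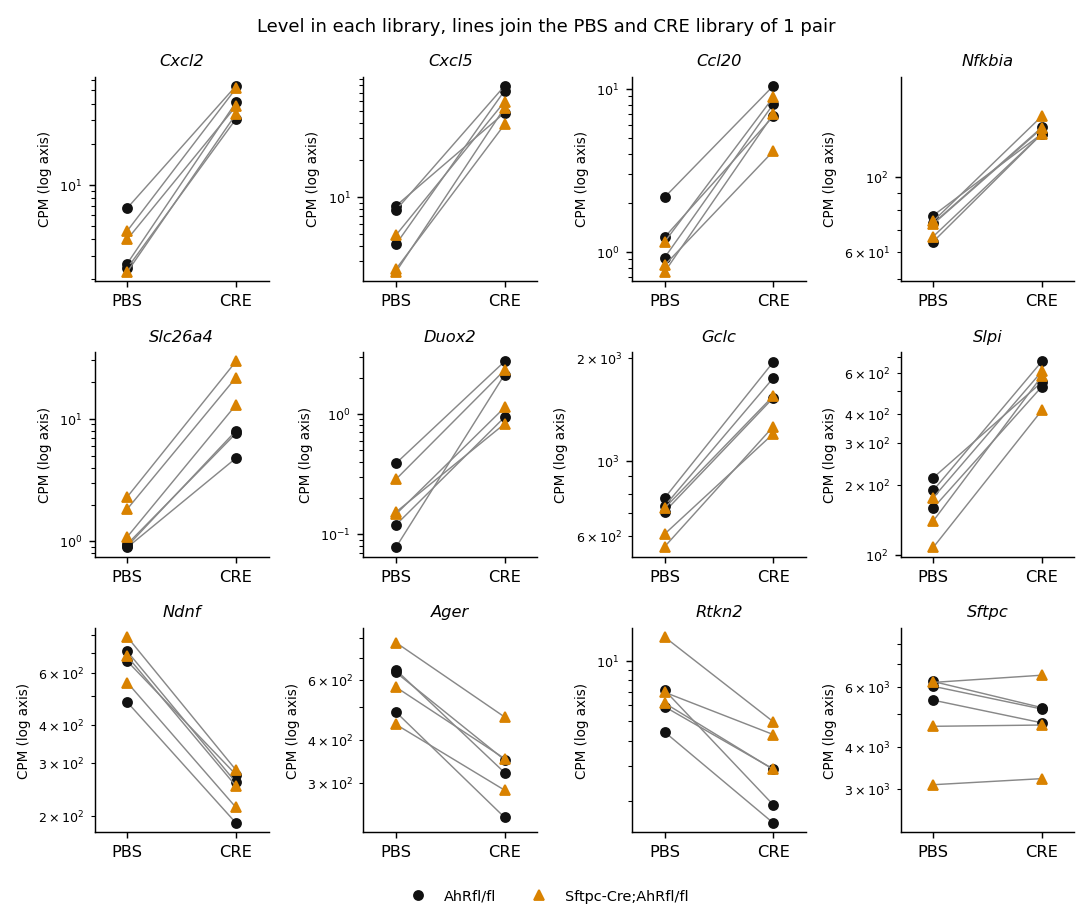
Each panel gives the CPM (log axis) of 1 gene in 12 libraries, with a line from the PBS to the CRE library of each pair, circles for *AhRfl/fl* and triangles for *Sftpc-Cre;AhRfl/fl* cells. The groups do not overlap in *Cxcl2*, *Cxcl5*, *Ccl20*, *Nfkbia*, *Slc26a4*, *Duox2*, *Gclc*, *Slpi* and *Ndnf*, whereas *Ager* and *Rtkn2* fall in all 6 pairs with overlap and *Sftpc* rises in 3 pairs and falls in 3.

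Cytokines rose with the chemokines. Of 24 cytokines and growth factors tested, 10 rose and 1 fell, and the median log2 fold change was 0.84, the highest of the 33 lists. *Il33*, an alarmin that activates group 2 innate lymphoid cells, went from 10.7, 17.6 and 21.5 CPM with PBS to 25.5, 40.2 and 54.8 CPM with CRE, without overlap (log2 fold change 1.26, SE 0.05, adjusted p = 3.05e-05). The IL-1 genes were lower and more scattered. *Il1a* rose 5.84-fold from a median of 0.663 CPM (adjusted p = 0.000205) and *Il1b* 4.19-fold from 1.51 CPM (adjusted p = 0.000197), each in 6 of 6 pairs with overlapping groups. *Il1f9*, also called *Il36g*, went from 8.81 ± 1.23 to 18.2 ± 2.88 CPM (mean ± SD, n = 6). *Il6* rose 3.18-fold, *Tnf* 2.78-fold, *Csf3* 2.63-fold, *Csf2* 3.09-fold and *Csf1* 1.27-fold. These encode 2 inflammatory cytokines and the growth factors of granulocytes and macrophages. *Csf2* missed the threshold without pair 2 of *AhRfl/fl* (adjusted p = 0.0555) or pair 1 of *Sftpc-Cre;AhRfl/fl* cells (0.0534). *Il1f6* had 0 to 4 counts in each PBS library and 8 to 31 in each CRE library, and its adjusted p of 0.0413 became 0.0619 to 0.101 when a pair was left out. *Il11* fell, from 21.5 to 16.7 CPM on average, but it passed in only 2 of the 6 fits that left out 1 pair (adjusted p up to 0.0719). *Tslp*, another epithelial alarmin, was near the limit of detection at 0.178 CPM with PBS and 0.0906 CPM with CRE and was not called.

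Genes of the NF-kB system moved the same way. Among 24 subunits and feedback inhibitors 12 rose and 0 fell (median log2 fold change 0.39), and 12 of 26 promoter windows of this list held the consensus. *Nfkbia*, the inhibitor that holds NF-kB in the cytoplasm, lay at 64.5, 72.9 and 77.0 CPM with PBS and at 134, 137 and 151 CPM with CRE (log2 fold change 0.96, SE 0.04, adjusted p = 3.78e-05). The ranges of its groups were narrow and far apart. *Zc3h12a*, which encodes an RNase that degrades cytokine mRNA, rose 4.59-fold from 6.22, 7.45 and 13.2 CPM to 31.7, 38.3 and 44.2 CPM. *Nfkbiz*, a nuclear co-activator of secondary NF-kB targets, rose 2.90-fold, and *Tnip3*, an inhibitor upstream of the kinase complex, 2.07-fold. The subunits changed less, with *Rel* 0.49, *Nfkb1* 0.32 and *Nfkb2* 0.30 on the log2 scale, and *Rela* was not called (203 and 216 CPM, adjusted p = 0.331). Of 26 pattern and protease receptors 4 (15.4%) rose and 1 (3.85%) fell, against 3.02% and 2.61% of all genes tested. Their median log2 fold change was 0.07. *Cd14*, the co-receptor for lipopolysaccharide, rose 2.47-fold (adjusted p = 0.00014) and *Tlr2* 1.47-fold (adjusted p = 0.000651), both without overlap. *Nod2* rose 2.55-fold, and its adjusted p of 0.0314 became 0.0745 to 0.0901 without pair 1, 2 or 3 of *AhRfl/fl* or pair 2 of *Sftpc-Cre;AhRfl/fl* cells. *F2rl1*, the protease-activated receptor PAR2, fell from 128 to 112 CPM (log2 fold change -0.20, adjusted p = 0.0193).

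Antimicrobial and acute-phase genes followed, with 9 of 25 higher and 0 lower. *Saa3*, an acute-phase serum amyloid, had the largest increase of all genes that passed the rule for naming, from 0.102, 0.200 and 0.614 CPM to 0.970, 3.28 and 6.97 CPM (log2 fold change 3.67, SE 0.34, adjusted p = 0.000691). *Slpi*, an inhibitor of neutrophil elastase, rose at a much higher level, from 108, 167 and 214 CPM to 415, 564 and 671 CPM, or 3.44-fold (adjusted p = 4.88e-05). *Lcn2*, which withholds iron from bacteria, rose 3.11-fold (adjusted p = 0.000197) and *Pglyrp1*, a peptidoglycan-binding protein, 3.15-fold (adjusted p = 0.00228). None of these groups overlapped. In the complement list 2 of 20 genes (10.0%) rose and 3 (15.0%) fell, against 3.02% and 2.61% of all genes tested. Its median log2 fold change was -0.07, and its summed level was lower with CRE in each pair. *C3* went from 171, 191 and 237 CPM to 349, 418 and 452 CPM, and *Cfb* rose 2.07-fold. *Clu*, far more abundant, fell in 6 of 6 pairs, from 2930 to 2300 CPM on average (log2 fold change -0.365, adjusted p = 0.00282). Iron and metal genes gave 6 of 16 higher and 0 lower. *Steap4*, a metalloreductase, rose 4.26-fold, the iron transporter *Slc11a2* 1.67-fold and the metallothionein *Mt2* 1.52-fold, all without overlap. *Vnn3*, a pantetheinase, rose 7.29-fold from 1.19, 2.29 and 2.81 CPM to 10.9, 15.0 and 21.9 CPM (adjusted p = 6.65e-05).

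Genes of hydrogen peroxide production and ion transport moved in both directions, 4 of 23 rising and 5 falling. *Slc26a4* encodes pendrin, an exchanger of chloride for bicarbonate and thiocyanate, and rose 9.46-fold from 0.894, 1.02 and 2.31 CPM to 4.78, 10.5 and 29.4 CPM (log2 fold change 3.24, SE 0.18, adjusted p = 7.3e-05). For *Slc26a4* the 3 *Sftpc-Cre;AhRfl/fl* libraries with CRE, at 13.0 to 29.4 CPM, were above the 3 *AhRfl/fl* libraries at 4.78 to 7.99 CPM. The genotypes were already apart with PBS, at 1.09 to 2.31 CPM against 0.894 to 0.951 CPM. The response differed by 0.75 on the log2 scale (SE 0.21) with an adjusted p of 0.494. *Duox2*, an oxidase that releases hydrogen peroxide at the apical surface, rose 8.62-fold from 0.0773, 0.149 and 0.387 CPM to 0.825, 1.63 and 2.73 CPM (log2 fold change 3.11, SE 0.31, adjusted p = 0.000992). *Noxo1*, an organizer subunit of NADPH oxidase 1, rose 2.79-fold (adjusted p = 0.00326). All 6 CRE libraries exceeded all 6 PBS libraries in each of these 3 genes. The members that fell encode channels for sodium, chloride and water. The subunits of the epithelial sodium channel changed by -0.28 (*Scnn1a*), -0.55 (*Scnn1b*) and -0.37 (*Scnn1g*) on the log2 scale, the chloride channel *Ano1* by -0.42 and the water channel *Aqp5* by -0.58, each lower in 6 of 6 pairs with overlapping groups.

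The list with the highest share of called genes was that of NRF2, in which 16 of 20 antioxidant genes rose and 0 fell, with a median log2 fold change of 0.44. *Gclc*, the catalytic subunit of the enzyme that limits glutathione synthesis, went from 558, 716 and 776 CPM to 1200, 1540 and 1950 CPM (log2 fold change 1.16, SE 0.05, adjusted p = 3.05e-05). Its regulatory partner *Gclm* went from 88.9, 104 and 145 CPM to 174, 208 and 229 CPM (0.95, SE 0.08, adjusted p = 0.000599). *Slc7a11*, which imports cystine for glutathione, rose 2.55-fold (adjusted p = 0.000113) and the transferase *Gsta4* 1.86-fold (adjusted p = 6.65e-05). The groups did not overlap in any of these 4 genes. *Nqo1* rose 1.54-fold and *Hmox1* 1.46-fold in 6 of 6 pairs. *Txnrd1* (666 and 896 CPM) and *Srxn1* (503 and 649 CPM) were not called, with adjusted p of 0.0792 and 0.254. *Srxn1* changed by -0.561 on the log2 scale in pair 3 of *AhRfl/fl* cells, against 0.422 to 0.674 in the other pairs. The antioxidant response element TGACNNNGC was found on either strand in 8 of 20 windows of this list, in 12.4% of all windows and in 14.2% of those of genes tested. The window of *Gclm* is shown because both subunits of its enzyme rose, and its match, on the reverse strand, begins 134 bases before the start.
Gclm (chr3:122245307-122245606, + strand): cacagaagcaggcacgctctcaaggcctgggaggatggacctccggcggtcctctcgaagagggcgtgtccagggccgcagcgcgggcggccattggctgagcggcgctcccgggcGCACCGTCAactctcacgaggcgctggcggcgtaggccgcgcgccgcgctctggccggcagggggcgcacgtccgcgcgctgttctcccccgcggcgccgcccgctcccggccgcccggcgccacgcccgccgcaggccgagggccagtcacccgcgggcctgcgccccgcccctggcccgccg

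AhR targets, which form a list of 10 tested genes, gave 5 higher and 0 lower (median log2 fold change 0.41). *Aldh3a1*, an aldehyde dehydrogenase, rose 1.85-fold (adjusted p = 0.00261) and the transferase *Gsta1* 2.07-fold (adjusted p = 0.000398), while *Nqo1* stands in both lists. *Tiparp* rose 1.17-fold, with an adjusted p of 0.0441 that became 0.0515 to 0.139 when a pair was left out. *Ugt1a6b* rose 6.12-fold, but it shares exons with its neighbours in the *Ugt1a* locus, so its counts are uncertain, and it passed in 1 of 6 fits without a pair (adjusted p up to 0.122). *Cyp1b1*, spread over 31.7 to 404 CPM with PBS and 33.8 to 465 CPM with CRE, was not called (log2 fold change 0.11, SE 0.04, adjusted p = 0.168), nor was *Cyp1a1* (0.25, SE 0.10, adjusted p = 0.235). *Ahrr*, which encodes the AhR repressor, was not called either (2.12 and 2.91 CPM, adjusted p = 0.642), with fitted log2 fold changes of 0.68 in *AhRfl/fl* and -0.28 in *Sftpc-Cre;AhRfl/fl* cells whose difference had an adjusted p of 0.494. *Ahr* itself lay at 40.2, 44.5 and 49.6 CPM with PBS and at 37.7, 50.3 and 56.2 CPM with CRE (adjusted p = 0.293).

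**Figure D3:**
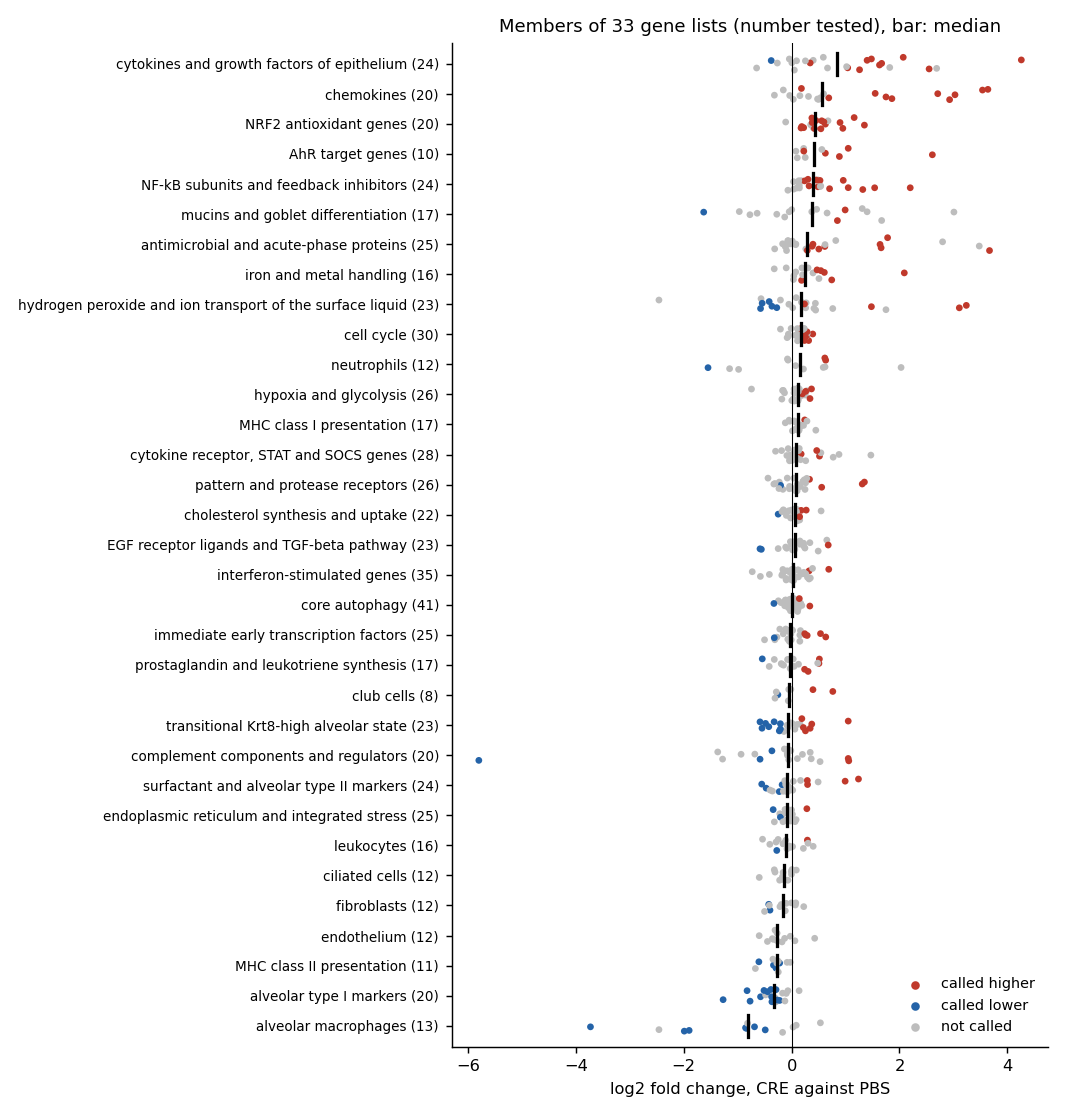
Each point is the log2 fold change with CRE of 1 tested member of 33 gene lists, and the bar is the median of the list. Lists are ordered by median, from 0.84 for cytokines and growth factors to -0.82 for alveolar macrophages, and red and blue mark members called higher and lower over all genes tested.

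AT1 genes were lower with CRE. Of 20 tested markers 12 fell and 0 rose, with a median log2 fold change of -0.33. *Ager*, the receptor for advanced glycation end products and a widely used AT1 marker, went from 445, 603 and 775 CPM to 237, 335 and 468 CPM (log2 fold change -0.83, SE 0.06, adjusted p = 0.000197). *Rtkn2* went from 4.42, 6.56 and 13.1 CPM to 1.56, 2.88 and 4.97 CPM (-1.27, SE 0.16, adjusted p = 0.003), and *Col4a4*, a chain of the alveolar basement membrane, changed by -0.77 (SE 0.04, adjusted p = 5.97e-05). The groups overlapped for each, but every pair fell. *Hopx* (145 and 119 CPM, adjusted p = 0.09) and *Pdpn* (66.6 and 61.6 CPM, adjusted p = 0.284) were not called. *Ndnf*, which encodes a secreted neuron-derived factor, had the smallest adjusted p of all genes (4.89e-06): it went from 478, 667 and 789 CPM to 189, 254 and 284 CPM, without overlap (log2 fold change -1.39, SE 0.04).

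AT2 genes moved in both directions, with 4 of 24 higher, 4 lower and a median log2 fold change of -0.08. *Sftpc* lay at 3090, 5750 and 6220 CPM with PBS and at 3220, 4930 and 6490 CPM with CRE (adjusted p = 0.426). *Sftpb* had 641 and 609 CPM (adjusted p = 0.408). *Cd36*, a fatty acid transporter, rose 2.36-fold (adjusted p = 0.000247), *Muc1* 1.99-fold (adjusted p = 7.3e-05) and *Lamp3* 1.23-fold (adjusted p = 0.00329). *Lpcat1*, an enzyme of surfactant phospholipid synthesis, fell from 82.5, 101 and 183 CPM to 64.0, 66.2 and 128 CPM (-0.55, SE 0.06, adjusted p = 0.00105), and *Etv5*, a transcription factor that maintains AT2 cells, by 0.47 without overlap (adjusted p = 0.00202). *Abca3*, the lipid transporter of lamellar bodies, went from 157 to 139 CPM (adjusted p = 0.0163), and passed in 2 of 6 fits without a pair (adjusted p up to 0.065). In the list of the transitional *Krt8*-high state, 6 of 23 genes rose and 8 fell, and *Krt8* itself was not called (3810 and 3460 CPM, adjusted p = 0.0659). *Scgb1a1*, the club cell marker, fell from 5900 ± 1520 to 4930 ± 1160 CPM (adjusted p = 0.0106).

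Genes of myeloid cells moved in both directions. *Siglecf*, which marks alveolar macrophages and eosinophils, had 19 to 251 counts in the PBS libraries and 0 to 27 in the CRE libraries, or 0.271, 0.855 and 3.35 CPM against 0, 0.0542 and 0.354 CPM. *Siglecf* fell in every pair, by 3.73 on the log2 scale (SE 0.85, adjusted p = 0.0428), a call lost without pair 2 or 3 of *AhRfl/fl* or pair 1 or 2 of *Sftpc-Cre;AhRfl/fl* cells (adjusted p = 0.0799 to 0.121). *Ear2*, a ribonuclease of eosinophils and macrophages, went from 0.631, 1.16 and 7.2 CPM to 0.214, 0.326 and 2.13 CPM (-1.90, SE 0.19, adjusted p = 0.00102). Its near-identical relative *Ear1* changed by -1.99, a call that was lost without pair 1 of *AhRfl/fl* or pair 1 or 2 of *Sftpc-Cre;AhRfl/fl* cells (adjusted p up to 0.0594), and reads may be split between both genes. The mannose receptor *Mrc1* changed by -0.84 (adjusted p = 0.0134, and 0.0537 without pair 1 of *AhRfl/fl* cells). Of 13 tested alveolar macrophage markers, 7 fell and 0 rose, with a median log2 fold change of -0.82, and their summed level lay at 79.5 to 217 CPM with PBS and 73.2 to 180 CPM with CRE, lower in 6 of 6 pairs. *Marco*, a scavenger receptor that defines these cells, was not called (0.335 to 8.22 CPM with PBS, 1.07 to 12.2 with CRE, adjusted p = 0.254).

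The next 2 genes, chosen after their values were seen, fell to or near 0. *C1qb* had 203, 79 and 0 counts in *AhRfl/fl* and 96, 152 and 12 in *Sftpc-Cre;AhRfl/fl* cells with PBS and 0 counts in each CRE library, so that it was at least 30.1-fold lower with CRE against a floor of 3 counts per library (adjusted p = 0.0187). *C1qa* had 0 to 53 counts with PBS and 4 counts in 1 CRE library, with 0 in the other 5 (adjusted p = 0.0189, and 0.0604 to 0.11 without pair 1 or 2 of *AhRfl/fl* or any pair of *Sftpc-Cre;AhRfl/fl* cells). Both encode chains of complement C1q, a product of macrophages.

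Other myeloid genes rose in the same libraries. *Fpr2*, a receptor for formyl peptides, went from 0.0515, 0.268 and 1.83 CPM to 0.510, 3.35 and 14.2 CPM (log2 fold change 3.21, SE 0.33, adjusted p = 0.00123). *Acod1*, which makes itaconate in activated macrophages, went from 0.258, 0.492 and 2.80 CPM to 0.792, 5.17 and 17.7 CPM (2.87, SE 0.28, adjusted p = 0.000923). Both rose in 6 of 6 pairs and were highest in pair 1 of each genotype, where *Ptprc* was highest too. *Tarm1*, an activating receptor of neutrophils and macrophages, rose from 0.249 to 1.09 CPM (adjusted p = 0.0428, and up to 0.112 in the 4 of 6 fits without a pair in which it was lost). *Ptprc* ranged from 3.41 to 66.5 CPM with PBS and from 2.19 to 67.5 CPM with CRE (log2 fold change -0.11, SE 0.12, adjusted p = 0.701). Of 16 tested leukocyte markers 1 rose and 1 fell (6.25% each, against 3.02% and 2.61% of all genes tested). Their sum was 109 to 726 CPM with PBS and 135 to 666 CPM with CRE. Among 12 neutrophil markers 2 rose (*Mmp8* and *Ltf*) and 1 fell (*Csf3r*), but *Ltf* passed in 1 and *Csf3r* in 0 of the 6 fits without a pair (adjusted p up to 0.133 and 0.154). *S100a8* was not called (1.32 to 13.4 and 0.38 to 11.4 CPM, adjusted p = 0.931). Because *Il1a*, *Il1b*, *Ccl22* and *Tnf* are also made by myeloid cells, the part of those cells in their increase was not tested.

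**Figure D4:**
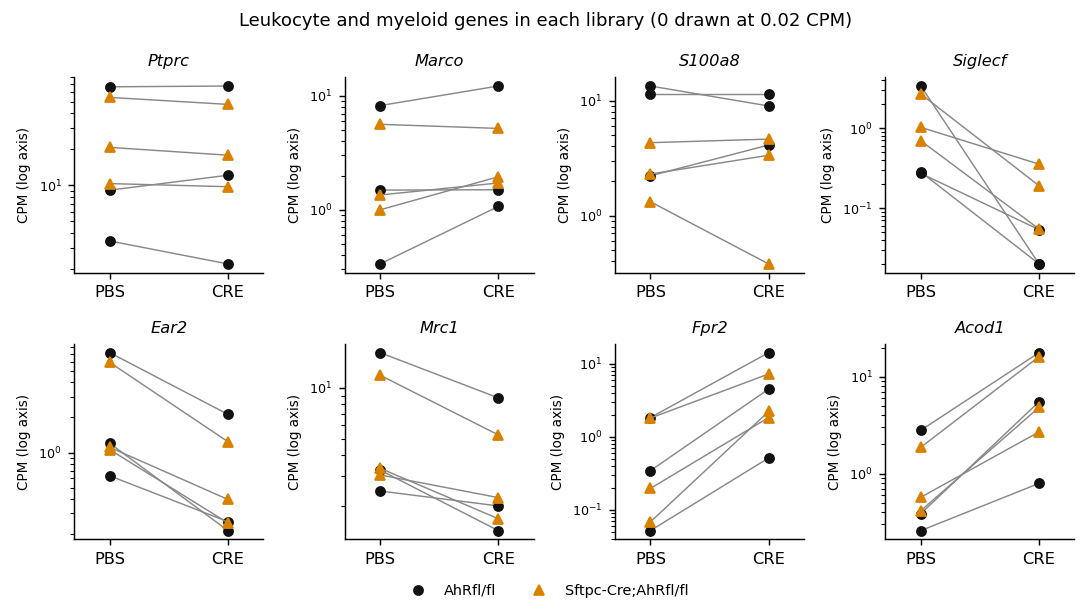
CPM (log axis, 0 drawn at 0.02) of a leukocyte marker and 7 myeloid genes in 12 libraries, with lines joining the libraries of a pair, circles for *AhRfl/fl* and triangles for *Sftpc-Cre;AhRfl/fl* cells. *Ptprc* differs more between pairs (2.19 to 67.5 CPM) than between PBS and CRE, *Siglecf*, *Ear2* and *Mrc1* fall in all 6 pairs, and *Fpr2* and *Acod1* rise in all 6.

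Most members of the remaining lists were not called. Over all genes tested, 3.02% were called higher and 2.61% lower, and the counts below are to be read beside these shares. Of 17 genes of prostaglandin and leukotriene synthesis 4 rose and 1 fell: *Ptgs2*, the inducible cyclooxygenase, rose from 419 to 608 CPM on average (log2 fold change 0.51, adjusted p = 0.00407) and *Ptges*, a prostaglandin E synthase, from 31.4 to 44.1 CPM (0.51, adjusted p = 0.00224). Of 30 cell cycle genes 9 rose and 0 fell, by small amounts such as *Ccnd1*, a cyclin of G1 phase, from 441 to 522 CPM (0.24, adjusted p = 0.00867). Among 11 genes of MHC class II presentation 4 fell and 0 rose, with a median log2 fold change of -0.27. *Ctss*, a protease of antigen processing, had the largest of these changes (45.8 and 30.1 CPM, -0.61, adjusted p = 0.00343). Without the block of pairs its log2 fold change ran from -1.52 to 0.18 when 1 library was left out, the latter without the PBS library of pair 1 of *AhRfl/fl* cells. *Ctss* was highest in pair 1 of both genotypes, at 90.6 and 107 CPM with PBS against 4.1 to 26.9 CPM in the other pairs, where *Ptprc* was highest too, and alveolar macrophage markers fell in the same libraries, whose part in this change was not tested. *H2-Aa* missed the threshold without pair 1 of *AhRfl/fl* cells (adjusted p = 0.0505), and *H2-Eb1* missed it without any 1 of the pairs (0.0562 to 0.105). Of 17 mucin and goblet cell genes 2 rose (*Muc1* and *Muc20*) and 1 fell (*Muc16*, lost in 3 of 6 fits without a pair, adjusted p up to 0.0849). Interferon-stimulated genes gave 2 of 35 higher, which were *Irf1* and *Cxcl10*, and cytokine receptor, STAT and SOCS genes 3 of 28. Hypoxia and glycolysis genes gave 4 of 26 higher, cholesterol genes 3 of 22 higher and 1 lower, and immediate early genes 5 of 25 higher and 1 lower. Stress genes of the endoplasmic reticulum gave 1 of 25 (4.0%) higher and 2 (8.0%) lower, and MHC class I genes 1 of 17 (5.88%) higher. These last counts, and that of interferon-stimulated genes (5.71% higher), rest on 1 or 2 genes each. Little can be read from them beside the shares over all genes. None of 12 endothelial and none of 12 ciliated cell markers was called, while 2 of 12 fibroblast markers fell and 2 of 8 club cell markers rose and 1 fell.

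Autophagy and TGF-beta1 are subjects of the study. Of 41 core autophagy genes 2 (4.88%) rose and 1 (2.44%) fell, against 3.02% and 2.61% of all genes tested. Their median log2 fold change was 0.01. Such counts are near those over all genes and are no result about autophagy genes as a list. *Sqstm1*, the cargo receptor p62 and also an NRF2 target, rose from 1830, 2220 and 2540 CPM to 2350, 2700 and 3170 CPM (0.34, SE 0.05, adjusted p = 0.00436), and *Atg3*, an enzyme of LC3 conjugation, fell from 159 to 126 CPM (-0.33, SE 0.04, adjusted p = 0.00329). *Calcoco2*, another cargo receptor, had only 0 to 51 counts per library and was not called (log2 fold change -0.13, SE 0.80, adjusted p = 0.961). *S100a9* was not called either (adjusted p = 0.911). *Tgfb1* stood at 30.6, 35.9 and 49.7 CPM with PBS and at 31.6, 38.5 and 45.4 CPM with CRE (adjusted p = 0.764). The other TGF-beta ligands moved apart, as *Tgfb2* rose 1.60-fold (adjusted p = 0.000171) and *Tgfb3* fell from 69.4, 75.9 and 100.0 CPM to 45.9, 51.9 and 71.5 CPM (-0.56, SE 0.05, adjusted p = 0.000473). *Areg*, a ligand of the EGF receptor, fell as well, by 0.59 on the log2 scale (adjusted p = 0.000623).

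In 1 fit of all libraries, 748 genes (3.63%) were called in *AhRfl/fl* cells, 386 (1.87%) higher and 362 (1.76%) lower, and 439 (2.13%) in *Sftpc-Cre;AhRfl/fl* cells, 275 (1.33%) higher and 164 (0.796%) lower. Of the 1161 genes called over 6 pairs, 309 were called in both genotypes, 262 in *AhRfl/fl* cells only, 88 in *Sftpc-Cre;AhRfl/fl* cells only and 502 in neither. A call in 1 genotype and not in the other is no difference between them, and the difference itself was called for 0 genes by edgeR with a smallest adjusted p of 0.275, for 1874 genes (9.09%) at an unadjusted p below 0.05, and for 98 genes by DESeq2. Fitted on their own 3 pairs, which share no library, *AhRfl/fl* cells gave 148 called genes and *Sftpc-Cre;AhRfl/fl* cells 165. Of the 148, 142 (95.9%) had the same direction in the other genotype and 84 (56.8%) were called there, and of the 165, 156 (94.5%) had the same direction and 84 (50.9%) were called. *Cxcl2* changed by 3.53 and 3.54 and *Ndnf* by -1.35 and -1.43 on the log2 scale in *AhRfl/fl* and *Sftpc-Cre;AhRfl/fl* cells. The 3 genes with the smallest p for the difference were 1 of 2 genes named *Myl12b* (ENSMUSG00000117098), *Sftpc* and *Actr3*, which encodes a subunit of the actin-branching Arp2/3 complex. *Actr3* rose by 0.61 in *AhRfl/fl* and by 0.15 in *Sftpc-Cre;AhRfl/fl* cells, and its call over 6 pairs (adjusted p = 0.0431) was kept in 1 of 6 fits without a pair (adjusted p up to 0.127). *Sftpc* changed by -0.23 and 0.05. This *Myl12b* gene switched between 0 to 90 and 3378 to 5325 counts in single libraries while the other gene of that symbol held 15984 to 23773 counts, so how reads were shared out between both is uncertain.

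**Figure D5:**
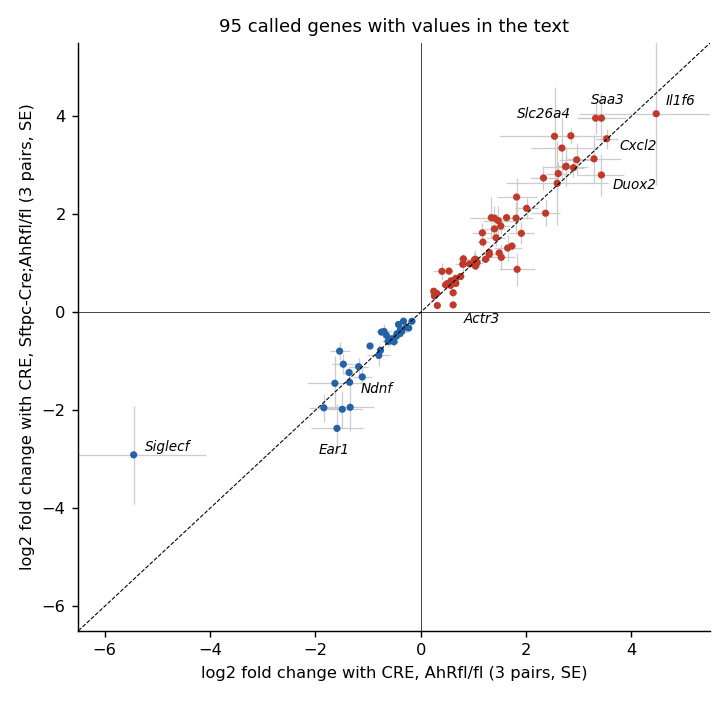
Log2 fold change with CRE of 95 called genes in *AhRfl/fl* (x axis) and *Sftpc-Cre;AhRfl/fl* cells (y axis), 3 pairs each, with SE as bars and the line of equal change dashed. All 95 lie on the same side of 0 in both, which the choice of genes called over both genotypes favours. *Slc26a4* stands at 2.85 and 3.60 and *Siglecf* at -5.45 and -2.91.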

How the data were processed

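RNA-seq libraries (Illumina TruSeq stranded mRNA) of 12 samples were used. According to the methods and the submitters' processing notes, the authors aligned reads with STAR 2.7.2b to GRCm38 (mm10), annotated them with Partek and RefSeq, and took gene counts from Salmon. The count values were deposited as whole numbers, and how they became whole is not given in the sources used here. FPKM values were deposited beside the counts by the authors, with 0.0001 where the count is 0, and serve here for comparisons between genes. All 55450 gene IDs matched GENCODE M21.

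Groups came from the sample titles. Counts were filtered (filterByExpr, minimum count 10), scaled by TMM and tested in edgeR 4.0.16 (R 4.3.3) with treatment and the 6 pairs as terms, and p-values were adjusted over all 20612 genes. An interaction term tested the genotypes. Pairs were set by genotype and replicate number. Same-numbered CRE and PBS libraries of a genotype deviated together from the means of their groups (correlations 0.325 to 0.729 over 14543 genes). Differently numbered libraries gave -0.598 to 0.0327, which is no independent contrast. Deviations from a group mean cancel out within the group, which by itself pushes these values down. The same libraries were then fitted with the pairs, so the correlations are no separate test of the pairing. The study's methods state no pairing. DESeq2 1.42.0 and limma 3.58.1 gave alternatives. Fold changes are fitted values. The SE of a log2 fold change was derived from the test, as its absolute value divided by the square root of the quasi-likelihood F statistic.

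Named genes were the 12 largest changes in each direction with the same sign in all 6 pairs and at least 1 CPM, up to 4 called and 2 uncalled members of each of 26 pathway lists, the 5 most abundant called genes, the 3 smallest p for the difference between genotypes, genes the study named, and defining markers of 7 cell type lists. *Ccl2*, *Ccl7*, *Ccl22*, *Il6*, *Tnf*, *Csf1*, *Csf2*, *Csf3*, *Il1f6*, *Il11*, *Rel*, *Pglyrp1*, *Steap4*, *Gclm*, *Scnn1a*, *Scnn1g*, *Aqp5*, *Lamp3*, *Mrc1*, *C1qa* and other list members outside this rule were added after their values were seen. The comparison and the lists were chosen with earlier results of these data known. Some list members are not reported here by name.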

Additional observations from a re-analysis of the deposited data

Results flagged for a closer look

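In 151 genes and lists the 6 pair differences (log2 of CRE over PBS) were searched for a value far from the other 5, which chance gives in about 1 of 20, and 5 were found. *Ccl22* rose by 2.72 in pair 3 of *AhRfl/fl* cells against 1.37 to 1.83 in the other pairs, and *Duox2* by 4.09 in the same pair against 2.11 to 2.82. *C1qa* stood at 0.0 in that pair, where both libraries had 0 counts, against -3.83 to -2.62 elsewhere. *Calcoco2* changed by -2.84 in pair 1 of *AhRfl/fl* cells against -0.138 to 1.46, at 0 to 51 counts per library. The median of the cholesterol list was -0.0196 in pair 2 of *AhRfl/fl* cells against 0.0404 to 0.0735.

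In 7 of 213 genes every pair of one genotype had the opposite sign to every pair of the other. *Sftpc* changed by -0.233 in *AhRfl/fl* and 0.0476 in *Sftpc-Cre;AhRfl/fl* cells on the log2 scale, a difference of 0.281 (edgeR interaction test, adjusted p = 0.275). The difference was 0.252 for the surfactant gene *Sftpa1* and 0.166 for the lysozyme gene *Lyz2* (adjusted p = 0.494 for both), -0.954 for *Ahrr* (adjusted p = 0.494), 0.244 for *Tgfb1* (adjusted p = 0.507), 2.18 for *Calcoco2* (adjusted p = 0.696) and -16.3 for the *Myl12b* gene ENSMUSG00000117098 (adjusted p = 0.275). None of these 7 differences passed the test. With so few pairs per genotype, chance alone gives such a pattern in some genes, and how many of the 213 was not worked out. The 213 also include genes chosen for the smallest p for the difference, among them *Sftpc* and this *Myl12b* gene. The count of 7 is therefore no result about the genotypes.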

How the results depend on the processing

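Over 6 pairs, 1161 genes were called. DESeq2 called 1957, 226 passed with no replicate block, 148 in *AhRfl/fl* and 165 in *Sftpc-Cre;AhRfl/fl* pairs alone, and 113 with a change above 2-fold. Leaving out 1 pair or, without the block, 1 library gave 128 to 835. All other alternatives gave 828 to 1427. Scaling by library size alone shifted the median of all genes by -0.00969 and gave 576 higher and 596 lower (49.1% higher against 53.6%), and limma on log2(FPKM + 1) gave 574 and 613. The difference between genotypes gave 98 genes by DESeq2 and 0 to 3 on leaving out a pair. The *AhRfl/fl* count of 748 became 48 with no replicate block, 148 on its own pairs and 128 to 264 without a pair. The *Sftpc-Cre;AhRfl/fl* count of 439 became 54, 165 and 80 to 173. Of 98 called genes followed through the alternatives, 79 passed in every fit without 1 pair, 43 with no replicate block and 20 under every alternative. Among these 98, only *Ctss* changed direction under the alternatives run, with log2 fold changes of -1.52 to 0.179 when a library was left out. Some called genes with values here, such as *F2rl1*, *Atg3* and *Ccnd1*, were not among the 98. The cause of these changes was not tested. Fits that leave libraries out also rest on fewer of them. Between 3 and 3 pairs, differences between genotypes were measured with less precision than the response over 6. Depth limits genes near 3 counts, such as *C1qb*, *Siglecf* and *Il1f6*.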
